A study of Papio anubis with 18 samples.

Results

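A set of genes separates the baboon lines B15 and M14939#3 from the lines B4 and 160-2, a division that cuts across the cell types compared in the study. B15 and B4 are embryonic stem cell (ESC) lines of the olive baboon, Papio anubis, and M14939#3 and 160-2 are induced pluripotent stem cell (iPSC) lines. A gene was taken when its mean was at least 2 CPM (counts scaled to the library's own total) over 12 libraries. Its CPM also had to vary less than 10-fold among the libraries of each line, and no library of B15 or M14939#3 could overlap with a library of B4 or 160-2. Of 29475 identifiers in the count table, 11536 passed the criteria on level and variation, and 149 of these (1.29%) did not overlap. The intended limit of 150 genes was therefore not reached. The 149 divide into 85 genes higher in B15 and M14939#3 (0.737% of the 11536) and 64 genes lower there (0.555%), a balance that single libraries could turn. All 12 libraries and the difference itself were used to choose them, so this difference is described here and not tested.

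ESC lines come from embryos, and iPSC lines come from somatic cells reprogrammed to a comparable state. Both kinds of cell renew themselves in culture and can form the tissues of the body, and separate lines of a single kind are known to differ in expression. Each of the 4 lines was grown on feeder cells and gave 3 RNA-seq libraries, all without any further treatment named in the labels. Each line is a single line, so a cell type is represented by 2 lines. The labels used here do not say whether libraries of a line came from separate cultures, so their spread may be partly technical. Genes are given by Ensembl identifier, because 0 identifiers could be matched to a symbol. Their functions are not described for that reason, and neither pluripotency genes nor RNA of the feeder cells could be examined by name. In such bulk samples, fewer cells of a kind and less RNA per cell cannot be told apart.

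Library properties overlapped between the sides. Each side has 3 libraries run on 1 lane and 3 run on 2 lanes. Genes with at least 1 count numbered 21995 to 24459 in the libraries of B15 and M14939#3 and 20726 to 24734 in those of B4 and 160-2. Total counts were 20614388 to 62634176 and 12049925 to 41215151 in the same order. A number after the letter p in the sample descriptions, which the labels do not define, was 16 to 43 and 16 to 84. One library stood apart in composition: ESC B15 replicate 2 had a TMM factor (a correction of the library total for composition) of 0.779, against 0.949 to 1.08 in the other libraries. Its 100 most counted genes took 23.0% of its counts, against 16.8% to 19.6% in the others.

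The widest separation belonged to ENSPANG00000018372. It had 48.1, 45.2 and 76.9 CPM in replicates 1 to 3 of ESC B15 and 86.3, 98.3 and 70.6 CPM in iPSC M14939#3. In ESC B4 it had 6.34, 4.90 and 4.10 CPM, and in iPSC 160-2 it had 2.24, 2.06 and 3.16 CPM. The means of the sides were 70.9 ± 21 CPM and 3.80 ± 1.65 CPM (SD, n = 6 each). Each library of B15 and M14939#3 was far above each library of the other lines, and the gene was detected in all 12, with 59 to 3012 counts.

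Second was ENSPANG00000017770, at 22.4, 12.2 and 12.9 CPM in ESC B15 and 27.2, 32.0 and 24.4 CPM in iPSC M14939#3. ESC B4 had 5.04, 2.82 and 0.29 CPM, and iPSC 160-2 had 4.95, 0.73 and 0.36 CPM. Replicate 1 was the highest of its line in both B4 and 160-2, and this gene varied more within a line (9.0-fold, with 0.3 added to the CPM) than any other of the 149. These 2 genes, with differences of 4.16 and 3.53 in mean log2(CPM + 0.3), were the only ones of the 149 with a difference of at least 2 on this scale, which is 4-fold.

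Among genes lower in B15 and M14939#3, ENSPANG00000018298 had the largest difference, of -1.81 in mean log2(CPM + 0.3). It had 6.42, 3.49 and 1.83 CPM in ESC B15 and 1.91, 0.73 and 1.5 CPM in iPSC M14939#3, against 6.94, 7.30 and 11.5 CPM in ESC B4 and 8.84, 9.46 and 6.84 CPM in iPSC 160-2. ESC B15 replicate 1 lay close to the libraries of B4 and 160-2, whereas the other 5 libraries of its side were well below them.

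ENSPANG00000012955 differed by -1.76 on the same scale. It had 2.95, 2.09 and 3.11 CPM in ESC B15, 3.80, 4.07 and 6.86 CPM in ESC B4 and 4.69, 6.16 and 7.30 CPM in iPSC 160-2. In iPSC M14939#3 it had 1.22 and 1.43 CPM in replicates 1 and 2 and no count in replicate 3, which allows up to 0.13 CPM from counting error alone. The 0 of that library enters the log mean as 0.3 CPM and widens the difference.

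**Figure D1:**
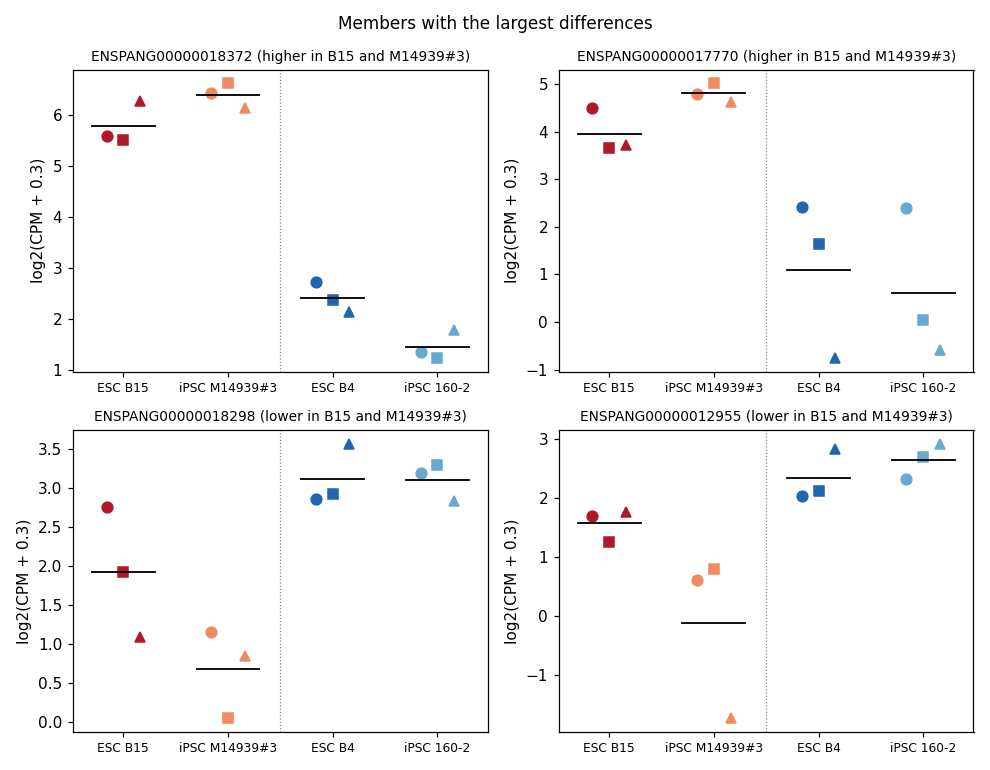
Level of the 2 genes with the largest difference in each direction, as log2(CPM + 0.3) by line; circles, squares and triangles are replicates 1, 2 and 3 and lines are means. ENSPANG00000018372, at 45.2 to 98.3 CPM on the left of the dotted line and 2.06 to 6.34 CPM on the right, has a wide gap, while ENSPANG00000018298 in ESC B15 replicate 1 (6.42 CPM) nearly reaches the libraries on the right.

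Most of the 149 differed far less. The median difference in mean log2(CPM + 0.3) was 0.80 for the 85 higher genes and -0.75 for the 64 lower genes, against a median absolute difference of 0.29 over all 11536 genes. The difference was at least 2-fold but under 4-fold for 39 of the 149 (21 higher, 18 lower). It lay between 0.5 and 1 on the log2 scale for 83 and under 0.5 for 25. The smallest belonged to ENSPANG00000016167 (-0.21), at 210 to 254 CPM in B15 and M14939#3 and 266 to 285 CPM in B4 and 160-2, and to ENSPANG00000022385 (0.26), at 166 to 232 CPM and 144 to 165 CPM. A large difference did not by itself keep libraries apart: of 358 genes that differed at least 2-fold, 317 overlapped and 41 were among the 149.

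Mean CPM over the 12 libraries, which is not corrected for gene length, ran from 2.00 to 1103 among the 149, with medians of 9.58 for higher genes and 34.7 for lower genes. ENSPANG00000007762 and ENSPANG00000009165 had the highest means among higher genes, at 1380 ± 358 against 826 ± 182 CPM and 1190 ± 242 against 908 ± 29.0 CPM (SD, n = 6 per side, B15 and M14939#3 first). ENSPANG00000024920 and ENSPANG00000010758 had the highest among lower genes, at 511 ± 118 against 833 ± 135 CPM and 541 ± 44.3 against 684 ± 42.8 CPM (SD, n = 6 per side). In these 4 genes the sides nearly touched, with gaps of 0.0045 to 0.048 in log2(CPM + 0.3).

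The gap between the nearest libraries of the sides was narrow in general, with a median of 0.088 in log2(CPM + 0.3), and 85 of the 149 genes had a gap under 0.1. Only 4 had a gap of at least 0.5. They were ENSPANG00000018372 (2.78), ENSPANG00000017770 (1.23), ENSPANG00000012759 (0.56) and, among lower genes, ENSPANG00000015644 (0.55). ENSPANG00000012759 had 22.0 to 44.2 CPM in B15 and M14939#3 and 10.3 to 14.8 CPM in B4 and 160-2, and ENSPANG00000015644 had 1.52 to 3.70 CPM and 5.56 to 12.1 CPM. The counts of the nearest libraries differed beyond an exact 95% counting interval in 39 of the 149 (15 higher, 24 lower), so for the others the depth does not resolve the gap. Intervals cover counting error only, since reads amplified by PCR are not independent molecules.

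At the limits of the criteria, the lowest mean of a gene taken was 2.00 CPM and the highest mean of a gene left out by level alone was 1.87 CPM. One gene was left out by variation within a line alone, at 16.6-fold. The smallest gap of a gene taken was 0.00048 in log2(CPM + 0.3), and the nearest gene left out overlapped by 0.00020 on that scale (a gap of -0.00020).

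**Figure D2:**
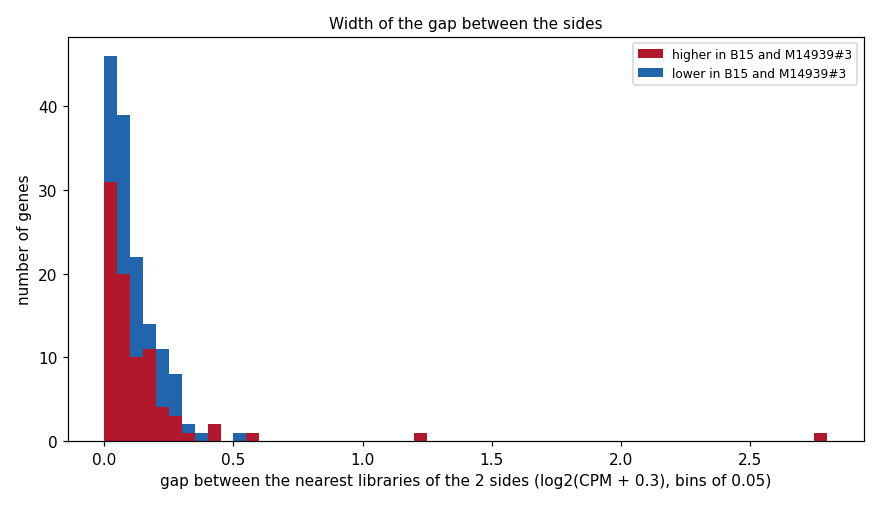
Number of genes by the gap between the nearest libraries of the sides, in log2(CPM + 0.3), for the 85 higher (red) and 64 lower (blue) genes, stacked. Most of the 149 lie near 0 (median 0.088), and 2 genes lie beyond 1.

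By library, the median over the 85 higher genes was 3.43 to 3.99 in log2(CPM + 0.3) in B15 and M14939#3 (median 3.73) and 2.34 to 3.06 in B4 and 160-2 (median 2.75). The higher genes together took 0.59% to 0.82% of the counts of a library on the first side and 0.43% to 0.50% on the other. For the 64 lower genes the medians were 4.0 to 4.62 and 5.29 to 5.68, and the shares of counts 0.39% to 0.49% and 0.62% to 0.71%. These ranges do not overlap because the genes were chosen not to.

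With CPM from own totals, the ESC lines lay on the inside of both sides for most higher genes. M14939#3 was above B15 in mean log2(CPM + 0.3) in 73 of the 85, and 160-2 was above B4 in 9 of them. In 67 of the 85 the order of the lines from the top was M14939#3, B15, B4, 160-2. The library nearest to the other side came from B15 in 66 and from B4 in 67 of the 85. ESC B15 replicates 1 and 2 alone were the nearest of their side in 30 and 34. For lower genes the order was less uniform: 160-2 was above B4 in 48 of 64, but M14939#3 was above B15 in 29 of 64. B15 replicate 2, with the low TMM factor, was the lowest of the 12 libraries in the median over lower genes (4.0) and the lowest of its side over higher genes (3.43). The counts of genes by order of the lines are from own totals only. Over higher genes the median of M14939#3 minus B15 was 0.21 from own totals. It was 0.04 (log2) in the edgeR fit described below, which uses TMM and a term for lanes. For 160-2 minus B4 it was -0.27 in both. Over lower genes the median of M14939#3 minus B15 was -0.04 and -0.23. Differences between B15 and B4 and between M14939#3 and 160-2 on TMM-scaled totals are given with the pairs of lines.

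**Figure D3:**
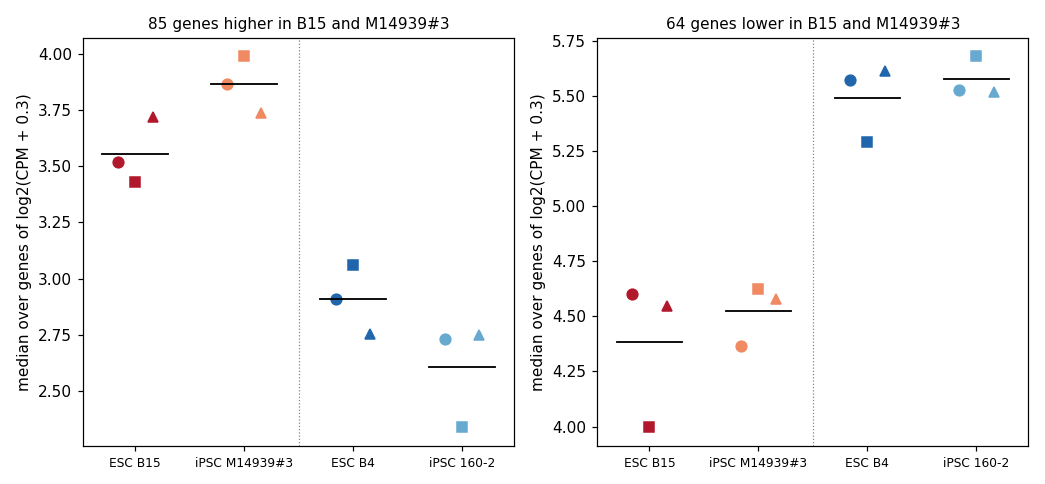
Median over the higher genes (left) and the lower genes (right) of log2(CPM + 0.3) in each library; circles, squares and triangles are replicates 1, 2 and 3 and lines are means of the 3 libraries of a line. ESC B15 replicate 2 is lowest among the libraries of the lower genes (4.0), and iPSC 160-2 replicate 2 among those of the higher genes (2.34).

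The difference between the sides can be split into a difference between the ESC lines (B15 minus B4) and one between the iPSC lines (M14939#3 minus 160-2), which share no library. Both were part of the choice of genes and are described only. For higher genes the median was 0.50 between the ESC lines and 0.99 between the iPSC lines in mean log2(CPM + 0.3), and the iPSC difference was the larger in 76 of 85. For lower genes the medians were -0.74 and -0.84, and the iPSC difference was the larger in size in 48 of 64. Over all 11536 genes the iPSC difference was the larger in size in 64.7%. With TMM-scaled totals the medians were 0.58 and 0.93 for higher genes and -0.65 and -0.90 for lower genes, and the iPSC difference was the larger in 73 and 56 genes. Without ESC B15 replicate 2 it was the larger in 74 and 55.

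A difference of at least 2-fold in both pairs was found in 16 of the 149 (5 higher, 11 lower). ENSPANG00000018372 differed by 3.38 between the ESC lines and 4.94 between the iPSC lines in mean log2(CPM + 0.3), and ENSPANG00000017770 by 2.85 and 4.2. The lower genes with the largest difference common to both pairs, picked after their values were seen, were ENSPANG00000022260 (-1.61 and -1.87) and ENSPANG00000023583 (-1.40 and -2.04). ENSPANG00000022260 had 4.66 to 15 CPM in B15 and M14939#3 and 15.9 to 62.5 CPM in B4 and 160-2. ENSPANG00000023583 had 1.70 to 2.87 CPM and 3.40 to 14.7 CPM.

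**Figure D4:**
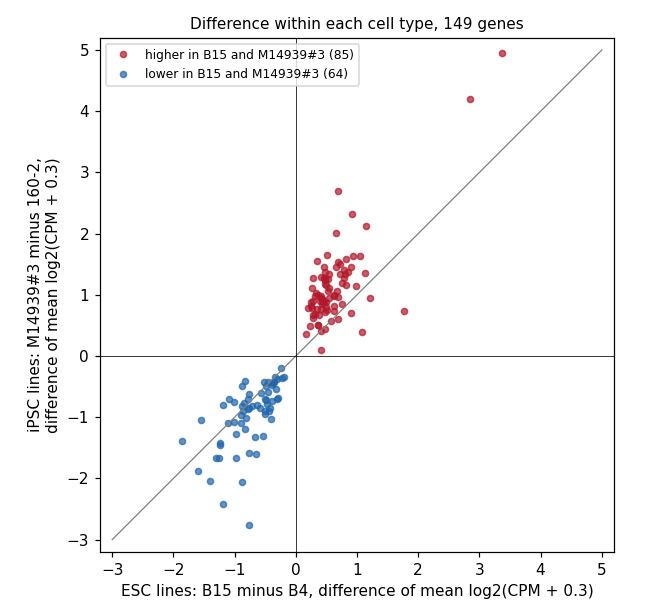
Difference between the ESC lines (horizontal) and between the iPSC lines (vertical) in mean log2(CPM + 0.3), one point per gene, with the line of equal differences. Most higher genes (red) lie above the line (76 of 85), and ENSPANG00000018372 and ENSPANG00000017770 stand alone at the upper right.

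In edgeR's quasi-likelihood test over 17106 genes, 113 of the 149 were called at an adjusted p (Benjamini-Hochberg) under 0.05 in the contrast that chose them, against 7.73% of all genes. The 113 are 75.8% of the 149 but 8.54% of the 1323 genes called. Between the iPSC lines edgeR called 85 of the 149 (8.84% of all genes) and DESeq2 113 (14.9%). Between the ESC lines edgeR called 4 (0.368% of all genes) and DESeq2 20 (1.4%). Same-numbered libraries of B15 and B4 deviated together, and they also share the number of lanes. With the replicate number as a block in place of the lanes, edgeR called 1 of the 149 over the 12 libraries (0.257% of all genes). In the 6 ESC libraries alone edgeR called 3 of the 149 with the replicate number as a block (0.213% of all genes) and 1 without it (0.094%). All these contrasts use the values that chose the genes, and nothing is read from the counts.

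Genes that separated the ESC lines were looked up between the iPSC lines, over the 11536 genes. The libraries of B15 and B4 did not overlap in 987 genes and those of M14939#3 and 160-2 in 3989. In 289 genes both pairs were apart in the same direction, which is 29.3% of the ESC list and 7.24% of the iPSC list. In 93 genes they were apart in opposite directions (9.42% and 2.33%). With TMM-scaled totals the counts were 413 and 87. By edgeR's adjusted p under 0.05 the balance was different, but over 17106 genes, without the criteria on level and variation. The test called 63 genes between the ESC lines and 1513 between the iPSC lines. Of these, 8 were shared in the same direction and 14 in opposite directions. Whether the balance differs from an even one was not tested.

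Differences that the choice did not use were then tested. Because overlapping and strongly varying genes were barred, such differences had less room among the 149 than among all genes, so a share below the background is not read as a result. The limits on level and variation also favour narrow 95% intervals. A share of intervals between -1 and 1 above the background is therefore not read as a result either. Between the cell types (mean of the iPSC lines against mean of the ESC lines), 0 of the 149 were called by edgeR's quasi-likelihood test at an adjusted p under 0.05, against 1.02% of all genes. DESeq2 called 0 as well (2.49% of all genes). At an unadjusted p under 0.05 by edgeR there were 7 (10.1% of all genes), each of them lower in iPSC (5.57% of all genes). For 139 of the 149 (93.3%, against 64.4% of all genes) the 95% interval stayed between -1 and 1 (log2), and the median absolute difference was 0.14, against 0.22 over all genes.

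Lowest in p was ENSPANG00000018199, at 62.5, 47.0 and 147 CPM in ESC B15, 39.5, 35.5 and 27.6 CPM in ESC B4, 95.9, 48.4 and 58.5 CPM in iPSC M14939#3 and 21.8, 11.7 and 12.2 CPM in iPSC 160-2. Its iPSC to ESC difference was -0.87 on the log2 scale (SE 0.26, edgeR adjusted p = 0.198). It was -0.40 without ESC B15 replicate 3, -0.47 with counts summed per line and -1.26 without iPSC 160-2 replicate 1. Over 18 alternatives the adjusted p ran from 0.00151, where genes of low count were kept, to 1. The libraries of the cell types overlap in this gene, and B15 replicate 3 is the highest of all.

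Within the first side, 1 of the 149 differed between M14939#3 and B15 by edgeR (1.02% of all genes), and 4 by DESeq2 (2.49% of all genes). It was ENSPANG00000014280, higher in M14939#3 (0.503% of all genes were), at 8.22, 5.71 and 5.25 CPM against 1.45, 1.55 and 2.07 CPM in ESC B15. ESC B4 had 0.85, 0.66 and 1.38 CPM and iPSC 160-2 had 0.54, 0.87 and 0.76 CPM, so B15 was close to the lower lines and M14939#3 stood alone. The other lines had 0.54 to 2.07 CPM, so the gene reached the mean of 2 CPM only through M14939#3. Its choice thus favoured this difference, and the call is not read as a result. The difference was 1.60 on the log2 scale (SE 0.34, edgeR adjusted p = 0.0379). The call was lost without B15 replicate 1 or 3, B4 replicate 1, any replicate of 160-2, or M14939#3 replicate 1 or 2, and the adjusted p ran from 0.000456 to 0.326 over 17 alternatives. For 110 of the 149 (73.8%, against 42.9% of all genes) the 95% interval stayed between -1 and 1.

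Within the other side, 0 of the 149 differed between 160-2 and B4 by edgeR (0.929% of all genes). DESeq2 called 1 (2.57% of all genes), and at an unadjusted p under 0.05 edgeR gave 10 (10.7% of all genes), of which 9 were lower in 160-2 (6% of all genes). Lowest in p was ENSPANG00000018372, whose level in 160-2 (2.06 to 3.16 CPM) lay below that in B4 (4.10 to 6.34 CPM) without overlap. Its difference was -1.06 on the log2 scale (SE 0.28, edgeR adjusted p = 0.0978, and 0.0296 by DESeq2, with a range of 0.0296 to 0.390 over 17 alternatives). The 95% interval stayed between -1 and 1 for 106 of the 149 (71.1%, against 42.7% of all genes).

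Whether the difference between the iPSC lines was unequal to that between the ESC lines was tested as an interaction. No gene of the 149 was called by edgeR (0 against 0.894% of all genes), while DESeq2 called 3 (2.37% of all genes). At an unadjusted p under 0.05 edgeR gave 17 (11.2% of all genes). Among higher genes these were 8 with a more positive and 2 with a more negative difference in iPSC, and among lower genes 7 with a more negative one. Over all genes 5.75% had a more positive and 5.49% a more negative difference at that threshold. ENSPANG00000014280 was lowest in p, with an interaction of 2.17 on the log2 scale (SE 0.49, edgeR adjusted p = 0.0513). This gene reached the mean of 2 CPM only through M14939#3, so its choice favoured such a difference. Its adjusted p was under 0.05 without ESC B15 replicate 2 and without iPSC M14939#3 replicate 3, and ran from 0.00262 to 0.182 over 17 alternatives. A 95% interval between -1 and 1 was found for 47 of the 149 (31.5%, against 19.5% of all genes), so for the rest an inequality of 2-fold is not excluded by the interval. The larger iPSC differences given above are therefore a description over genes that share libraries.

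Between libraries run on 1 lane and on 2 lanes, within lines, edgeR called 2 of the 149 (6.51% of all genes) and DESeq2 3 (10.7% of all genes). ENSPANG00000017770, with the second widest separation, was called by DESeq2 only (adjusted p = 0.0159, and 0.0619 by edgeR). Its difference of -1.68 on the log2 scale (SE 0.49) was the largest in size among the 149. ENSPANG00000036502 was higher in libraries run on 1 lane (1.85% of all genes were), by 0.85 on the log2 scale (SE 0.21, edgeR adjusted p = 0.0235). Its 2-lane libraries had 17.5 and 7.37 CPM in B15, 50.9 and 35.9 CPM in B4, 28 CPM in 160-2 and 13.9 CPM in M14939#3. Its 1-lane libraries had 23.4 CPM in B15, 81.7 CPM in B4, 65.2 and 51.5 CPM in 160-2 and 14.0 and 25.7 CPM in M14939#3. In each line the 1-lane libraries were above the 2-lane libraries, by little in M14939#3 replicate 1.

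ENSPANG00000005128 was lower in libraries run on 1 lane (4.67% of all genes were), with a difference of -0.74 on the log2 scale (SE 0.20, edgeR adjusted p = 0.0427). With the replicate number added as a block both edgeR calls were lost (edgeR adjusted p = 0.464 and 0.139), and the calls over all genes went from 1114 to 40. The first call was also lost without B15 replicate 3, B4 replicate 2 or 3, 160-2 replicate 1 or 2, or M14939#3 replicate 3. The second was also lost without B15 replicate 3, any replicate of B4 or of 160-2, or M14939#3 replicate 1. Their adjusted p ran from 0.00208 to 0.464 and from 0.0042 to 0.224 over 16 alternatives.

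With the number after the letter p, 0 of the 149 had a slope within lines by edgeR (0.52% of all genes), and DESeq2 called 2 (4.95% of all genes). ENSPANG00000017770 was among those 2, with a slope of -1.31 per doubling (SE 0.40, DESeq2 adjusted p = 0.0127, and 0.137 by edgeR). At an unadjusted p under 0.05 edgeR gave 9 (15% of all genes), 7 with a positive (6.03% of all genes) and 2 with a negative slope (8.93%). Lowest in p was again ENSPANG00000036502, with a slope of 0.71 per doubling of the number (SE 0.19, edgeR adjusted p = 0.095, range 0.0236 to 0.991 over 16 alternatives). Higher numbers lie mostly in libraries run on 1 lane, so the terms cannot be told apart in either gene.

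The membership itself depended on single libraries. When the genes were chosen again from 11 libraries, without the limit of 150, there were 159 to 213 genes after leaving out any library but 3. Leaving out the first library of ESC B15 gave 490, the second of ESC B15 339 and the second of ESC B4 570. With the limit of 150 kept, the balance of higher to lower genes was 54 to 96 without ESC B4 replicate 2 and 74 to 76 without iPSC M14939#3 replicate 3, so lower genes were the more numerous. It was 115 to 35 without ESC B15 replicate 2, and higher genes were the more numerous in the other 9 cases too. The left-out library can be placed, since it took no part in the choice. The other libraries of its line did take part, so a place near its own side may reflect its line alone. ESC B15 replicate 1 lay nearer to the mean of B4 and 160-2 than to that of its own side in 380 of the 490 genes, and nearer to its own side in 22.4%. ESC B4 replicate 2 was nearer to its own side in 26.0% of its 570 genes. ESC B15 replicate 2 was so in 38.1% of its 339, but in 58.5% with TMM-scaled totals. The other 9 libraries were nearer to their own side in 65.7% to 92.7%, with all 3 libraries of 160-2 at 82.7% or above.

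**Figure D5:**
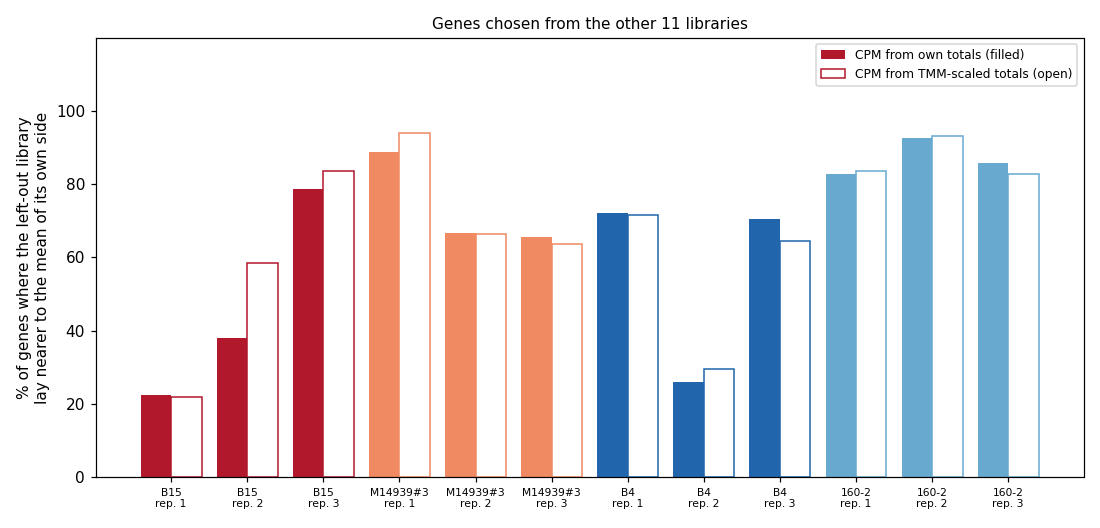
Share of genes, chosen from the other 11 libraries, in which the left-out library lay nearer to the mean of its own side, with CPM from own totals (filled) and from TMM-scaled totals (open). ESC B15 replicate 1 (22.4%) and ESC B4 replicate 2 (26.0%) are low on either scale, and the libraries of iPSC 160-2 are at 82.7% to 92.7% from own totals.

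B15 replicate 1 has the most counts of the 12 libraries and B4 replicate 2 the fewest, and the part of depth in their positions was not tested. The size of the difference for the 149 themselves moved little when a library was left out, with medians of 0.73 to 0.82 for higher genes and -0.80 to -0.72 for lower genes. Here the left-out library had taken part in choosing the genes, so the small movement is not read as a result.

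Scaling also changed the membership. With TMM-scaled totals 213 genes met the criteria, 109 higher and 104 lower, so 51.2% were higher, against 57.0% of the 149. The lists share 97 genes, which are 65.1% of the 149 and 45.5% of the 213. ENSPANG00000018372 and ENSPANG00000017770 kept gaps of 2.87 and 1.34 in log2(CPM + 0.3) on that scale. ENSPANG00000007762, ENSPANG00000009165, ENSPANG00000010758, ENSPANG00000022385 and ENSPANG00000016167 overlapped on it.

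For comparison, the same criteria applied to the cell types gave 96 genes whose iPSC libraries did not overlap with the ESC libraries (0.832% of 11536), 63 higher and 33 lower in iPSC. Their median absolute difference in mean log2(CPM + 0.3) was 0.86, against 0.80 for the 149, and the largest was 6.88, against 4.16. Whether these numbers of genes differ beyond the spread between lines was not tested, since each grouping has 2 lines on a side.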

How the data were processed

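The authors deposited raw read counts per gene and lane for 18 columns. The submitters' processing notes name featureCounts and edgeR but no version. Not given in the sources used here are the aligner, the build and the gene models. Per the labels' protocols, libraries were made with SMART-Seq v4 and Nextera XT kits. These do not mark strand, so genes that overlap on opposite strands cannot be told apart. Near-identical copies may not be told apart either, whatever the strand. Lanes of a library were summed, giving 12 libraries of 12049925 to 62634176 counts. CPM was computed from each library's own total and 0.3 was added before taking log2. Tests used edgeR 4.0.16 in R 4.3.3 (TMM, filterByExpr, robust quasi-likelihood fit) on 17106 genes, with terms for line and for 1 or 2 lanes, or for line and log2 of the number after p. P-values were adjusted by the Benjamini-Hochberg method over all genes. DESeq2 1.42.0, other scalings, no filter, a replicate block and leaving out each library were alternatives. The code was tested on simulated data. Deviations of same-numbered libraries from their line means correlated at 0.26, 0.41 and 0.44 between B15 and B4, so these numbers were taken as pairs. These libraries also share the number of lanes, which was not removed from the deviations. Replicates 1 and 2 of B15 and B4, all run on 2 lanes, correlated at -0.11 and -0.05 where the numbers differed. The part of the lanes in the pairing was not tested. In each other pair of lines at least 1 correlation was under 0.1.

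The genes, lists and tests were chosen with earlier results of these data known. Genes named by rule were the 2 largest differences and the 2 highest levels in each direction and, for each test, the 2 of lowest adjusted p in each direction, or the 1 of lowest p where none passed. The smallest differences, the gaps of at least 0.5 and the genes large in both pairs of lines were named after their values were seen. Gene lists and cell type markers went unused, since 0 identifiers matched the 39274 genes of the reference table.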

Additional observations from a re-analysis of the deposited data

Results flagged for a closer look

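ENSPANG00000012955, lower in B15 and M14939#3, had 0 CPM in iPSC M14939#3 replicate 3, against 1.22 to 3.11 CPM in the other 5 libraries of B15 and M14939#3. On log2(CPM + 0.3) the gap to the nearest library was 0.667 of the range, above Dixon's 95% critical value, and there the 0 takes its position from the added 0.3. On CPM the gap was 0.391 of the range, which is under that value. Of 44 groups of 6 libraries examined on the log2 scale, this was the 1 that stood out, and chance gives about 1 in 20.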

How the results depend on the processing

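The differences of the genes named in the tests kept their sign under the alternatives run. So did the median differences of the higher and of the lower genes. The choice of these genes fixes that sign when a library is left out or another constant is added, so it is not read as a result. The balance of 85 higher to 64 lower genes did not keep its direction, as given in the report. Between M14939#3 and B15 the 1 gene called was higher in M14939#3, but without ESC B15 replicate 3 it was ENSPANG00000018298, lower there. Without a filter on low counts edgeR called 1 of the genes between cell types, 4 between M14939#3 and B15, 2 between 160-2 and B4 and 3 in the interaction. Over all genes these calls were 617, 561, 553 and 521, against 175, 175, 159 and 153 with the filter. DESeq2 called 4 between M14939#3 and B15 (2.49% of all genes) and 1 between 160-2 and B4 (2.57%). It called 3 in the interaction (2.37%) and 2 on the number after p (4.95%). The cause was not tested. With the replicate number as a block (added to the lanes or to the number after p, and otherwise in place of the lanes), 0 genes were called between libraries on 1 and 2 lanes, and the block changed no other of these counts. Outside B15 and B4, the replicate number was not taken as a pairing. Some same-numbered libraries of other pairs of lines still share the number of lanes, as those of replicate 3 do. With each library left out in turn, the calls were 0 to 2 between M14939#3 and B15, 0 to 1 in the interaction, 0 to 3 between lanes, 0 to 1 on the number after p, and 0 throughout between cell types and between 160-2 and B4. Over all genes they were 64 to 254 between M14939#3 and B15, 89 to 354 between cell types and 73 to 276 between 160-2 and B4. None of these counts is read as a result. Requiring a mean of 5 CPM left 116 genes. Libraries of 12049925 counts and up, with 3 per line, limit what could be called at low levels.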
